A study of Rattus norvegicus with 6 samples.

Results

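The messenger RNAs of the transcription factor NRF2 and of 7 antioxidant enzymes or enzyme subunits were followed in primary rat bone marrow stromal cells (BMSCs) held at 1% O2. The 8 genes, Nfe2l2, Nqo1, Hmox1, Gclc, Gclm, Cat, Sod1 and Sod2, were taken as a fixed list of Ensembl gene IDs and make up 8 of the 32883 genes of the deposited table. All 8 had enough reads to be tested, among 12702 tested genes. The table gives no gene names. Each symbol below is the one paired with the ID in that list. The pairs could not be checked, because the RefSeq table of rat genes holds all 8 symbols but an Ensembl ID for 0 of its 47357 genes.

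The Hypoxia group consisted of 3 samples of primary BMSCs kept for 7 days under 1% O2, set by a tri-gas incubator. The Control group consisted of 3 samples of the same cell type in normal culture, whose oxygen level is not stated in the labels. Both groups grew in alpha-MEM with fetal bovine serum. The rat strain and the age of the animals are not stated either. Nor is it stated that replicates are different animals or cultures, so the p-values rest on a spread that may be technical only. One protocol in the labels speaks of muscle, and the defining markers of BMSCs or muscle could not be looked up without gene names. Oxygen cannot be told apart from any batch that differed between the groups. In such bulk samples, fewer cells of a type and less RNA per cell cannot be told apart.

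NRF2, the product of Nfe2l2, is the main activator of the antioxidant and detoxification programme of animal cells. In unstressed cells the adaptor KEAP1 marks it for degradation. Oxidants and electrophiles disable KEAP1, and NRF2 then pairs with small MAF proteins on antioxidant response elements. NRF2 is thus controlled mostly as a protein, and its mRNA is no direct measure of its activity. Hmox1, Nqo1, Gclc and Gclm are classic targets. Hmox1 is also a known target of the hypoxia-inducible factor and is held down by the repressor BACH1. Superoxide dismutases turn superoxide into hydrogen peroxide, and catalase breaks hydrogen peroxide down. In stromal cells of the marrow, a tissue with low oxygen tension, oxidant balance is known to bear on the choice between bone and fat cell fates.

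After 7 days at 1% O2, Hmox1 mRNA was 1.89-fold higher than in control cells, and the mRNAs of Nfe2l2, Nqo1, Cat and Sod2 were 1.19-fold to 1.52-fold lower. Gclc, Gclm and Sod1 did not pass the test. So 5 of the 8 genes passed an adjusted p of 0.05 (edgeR quasi-likelihood test with Benjamini-Hochberg adjustment over all tested genes, n = 3 and 3), where 45.0% of all tested genes did. In the higher direction it was 1 gene, against 23.1% of all tested genes. In the lower direction it was 4 genes, against 21.9% of all tested genes. The median log2 fold change was -0.19 over the 8 genes and 0.0025 over all tested genes. With genes changing this widely across the transcriptome, a count of 5 in 8 is not far from the background.

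**Figure D1:**
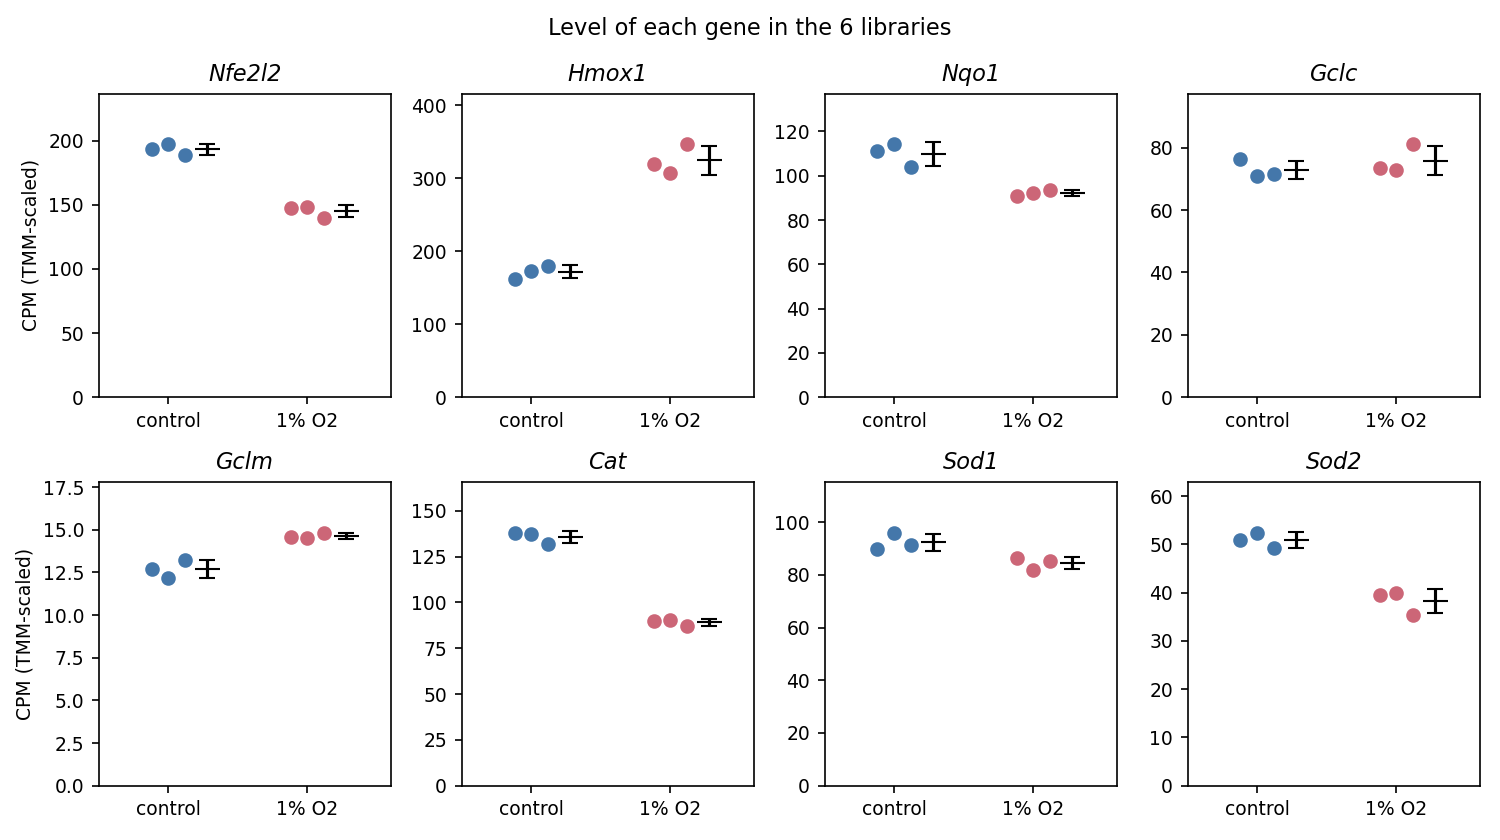
Level of each of the 8 genes in CPM (reads of a gene relative to the library's scaled total by TMM factors; vertical axes start at 0) in 3 control libraries (blue) and 3 libraries at 1% O2 (red); bars give mean and SD. Hmox1 lies higher at 1% O2 in all 3 libraries, Nfe2l2, Nqo1, Cat and Sod2 lie lower in all 3, and the groups overlap for Gclc.

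The libraries held 13273781 to 18533675 reads assigned to genes, and the 3 deepest were those at 1% O2. Levels are given as CPM, which is reads of a gene relative to the library's scaled total. CPM is not divided by gene length, so levels are compared between groups and not between genes. Control replicate 2 stood apart from the other controls over the transcriptome. There, 280 of 5043 abundant genes were lower than in its group's other libraries by over 0.3 on the log2 scale, against 4 to 8 genes in each of the other 5 libraries. In that library the 8 genes deviated by 0.0595 log2 units at most from the mean of all 3 controls. That mean includes the library itself, so this deviation is smaller than one from the other controls alone. Without Control replicate 2, the same count of the 8 genes was called in each direction.

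Promoter sequences of 7 of the 8 genes were available from RefSeq (build GRCr8, which is not the build of the counts). Hmox1 was not among them. The 250 bases before the annotated gene start are shown for the 3 genes with the largest falls, Cat, Nfe2l2 and Sod2, and for Gclm. Both strands of the 7 windows were searched for the core of the antioxidant response element, TGACNNNGC, where N is any base. Sod2 and Gclm were the 2 genes of the 7 with a match, and 10.1% of 33469 RefSeq promoter windows of the same length, those of non-coding genes included, held one. Capitals mark this match in Sod2 and Gclm, read there from the opposite strand. Because the series title names SP1, the GC box that Sp1 is known to bind, GGGCGG, was searched as well. It was found in 6 of the 7 windows, all but that of Cat, against 30.5% of all windows. The Nfe2l2 window held 6 GC boxes, which capitals mark there, and 0.825% of all windows held as many. Neither share was taken over expressed protein-coding genes alone, so neither is a measure of enrichment. A pair of the 6 shares 1 base, and no other matches overlapped. The core of the hypoxia response element (ACGTG or GCGTG) was found in 4 of the 7 windows, those of Nqo1, Gclc, Sod1 and Sod2, and in 36.7% of all windows. A match describes the letters and is no evidence of binding. Nor does a window without a match show that a gene lacks the element, since only these 250 bases were searched. In the order printed, the windows lie at chr3:81029000-81029249 (minus strand), chr3:110329527-110329776 (minus strand), chr1:50050169-50050418 (minus strand) and chr2:213031885-213032134 (plus strand), and are printed 5′ to 3′ along the gene.
Nfe2l2: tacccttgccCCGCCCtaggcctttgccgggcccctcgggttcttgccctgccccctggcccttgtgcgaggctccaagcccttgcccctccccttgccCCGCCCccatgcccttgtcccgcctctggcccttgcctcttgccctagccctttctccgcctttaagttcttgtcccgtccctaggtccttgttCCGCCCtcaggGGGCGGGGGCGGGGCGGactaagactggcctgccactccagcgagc
Cat: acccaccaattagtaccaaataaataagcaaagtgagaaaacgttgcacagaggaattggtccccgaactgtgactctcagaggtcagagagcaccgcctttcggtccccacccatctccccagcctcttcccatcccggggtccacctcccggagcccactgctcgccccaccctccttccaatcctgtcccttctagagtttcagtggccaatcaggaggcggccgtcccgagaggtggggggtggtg
Sod2: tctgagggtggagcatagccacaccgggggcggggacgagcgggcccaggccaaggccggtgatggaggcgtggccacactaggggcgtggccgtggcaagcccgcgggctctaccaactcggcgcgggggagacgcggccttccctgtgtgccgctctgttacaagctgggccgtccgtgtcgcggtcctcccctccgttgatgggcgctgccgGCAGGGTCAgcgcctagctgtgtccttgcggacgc
Gclm: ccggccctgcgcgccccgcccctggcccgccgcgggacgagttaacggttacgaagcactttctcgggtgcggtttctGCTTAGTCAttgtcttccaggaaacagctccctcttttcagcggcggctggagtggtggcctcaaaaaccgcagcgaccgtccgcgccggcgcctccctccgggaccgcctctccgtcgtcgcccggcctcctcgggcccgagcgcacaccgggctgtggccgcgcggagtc

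Nfe2l2 (ENSRNOG00000001548) was the regulator in the list. Its mRNA stood at 193.71, 197.35 and 188.77 CPM in the control libraries and at 147.39, 148.55 and 139.53 CPM at 1% O2. All 3 libraries at 1% O2 lay below all 3 controls, and the gap between the groups was wider than the range within either. The means were 193 ± 4.3 and 145 ± 4.9 CPM (SD, n = 3 each). The mRNA fell by 24.9%, a log2 fold change of -0.41 ± 0.04 (SE), with an adjusted p of 5.53e-06 by edgeR. Each library held 2004 to 2709 reads of Nfe2l2. The mRNA of the activator was thus lower in the same libraries in which that of its target Hmox1 was higher. Of the other targets in the list, Nqo1 was lower as well, and Gclc and Gclm did not pass the test.

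Hmox1 (ENSRNOG00000014117) encodes heme oxygenase 1, which splits heme into biliverdin, carbon monoxide and iron. It had 162.34, 172.51 and 180.19 CPM in controls and 319.38, 307.27 and 346.86 CPM at 1% O2. The lowest library at 1% O2 lay far above the highest control. The means were 172 ± 9.0 and 325 ± 20.3 CPM (SD, n = 3 each). Hmox1 rose by 0.92 ± 0.05 (SE) on the log2 scale, with a 95% interval of 0.80 to 1.03 (adjusted p = 1.06e-08, edgeR). This was above that of 96.5% of the tested genes, and 444 genes had a higher log2 fold change. Each library at 1% O2 held 4470 to 5736 reads of Hmox1, so counting error was small.

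Nqo1 (ENSRNOG00000012772) encodes the quinone reductase that keeps quinones from cycling and making superoxide. Its level was 111.26, 114.3 and 104.02 CPM in controls and 90.981, 92.388 and 93.574 CPM at 1% O2. The groups did not overlap, and the libraries at 1% O2 lay close together. The mean went from 110 ± 5.3 to 92.3 ± 1.3 CPM (SD, n = 3 each), so that the mRNA fell by 16.0%. On the log2 scale the change was -0.25 ± 0.05 (SE), with an adjusted p of 0.00102 by edgeR. Of these 2 target genes of NRF2, one rose and the other fell.

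The ratio of Hmox1 to Nqo1 reads within a library does not depend on how libraries are scaled. It was 1.459, 1.509 and 1.732 in controls and 3.51, 3.326 and 3.707 at 1% O2. No control reached the ratios at 1% O2. The log2 ratio was 0.64 ± 0.13 in controls and 1.81 ± 0.08 at 1% O2 (SD, n = 3 each), a 2.25-fold difference. This ratio was chosen after the values were seen, when Hmox1 was already higher and Nqo1 lower in every library at 1% O2. The groups could therefore not overlap in the ratio, and no p-value is given for it.

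**Figure D2:**
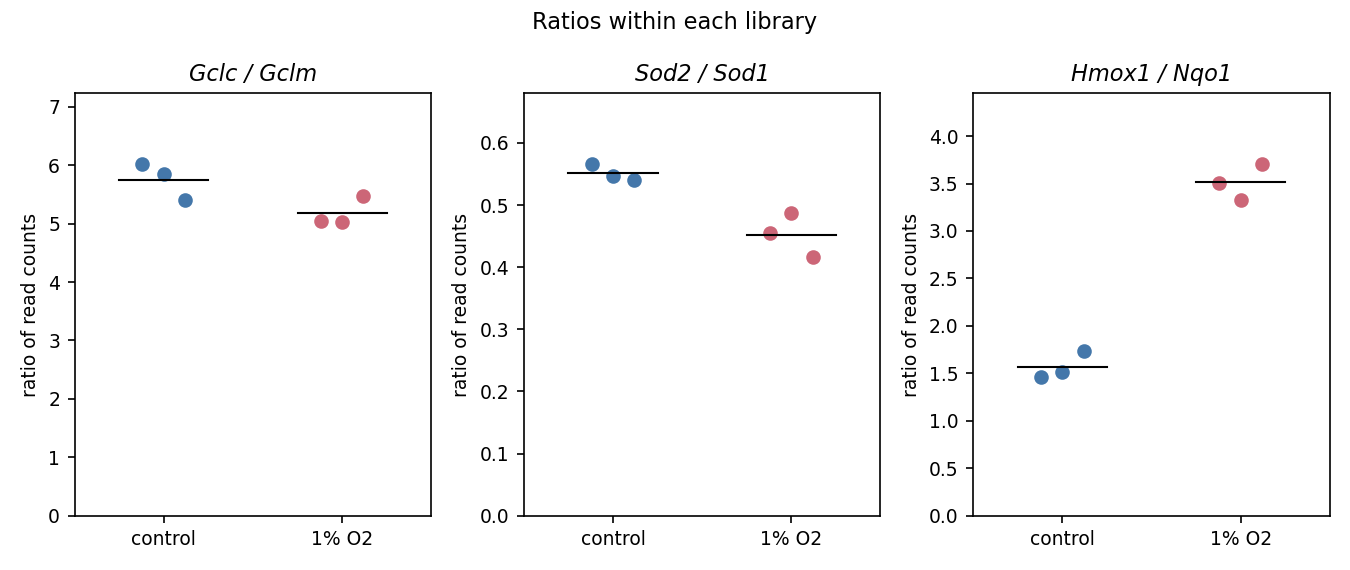
Ratio of read counts of paired genes in each library (vertical axes start at 0), with 3 control libraries in blue, 3 libraries at 1% O2 in red and the geometric mean as a line. The ratio of Hmox1 to Nqo1 is higher and that of Sod2 to Sod1 lower in every library at 1% O2, whereas the groups overlap for Gclc to Gclm.

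Gclc (ENSRNOG00000006302) and Gclm (ENSRNOG00000013409) encode the catalytic and the modifier subunit of glutamate-cysteine ligase, the rate-limiting enzyme of glutathione synthesis. Neither passed the test. Gclc stood at 76.37, 71.102 and 71.452 CPM in controls and at 73.553, 73.003 and 81.181 CPM at 1% O2. The groups overlapped, with 1 control above 2 of the 3 libraries at 1% O2. The log2 fold change of Gclc was 0.06 ± 0.06 (SE), and its adjusted p was 0.453 by edgeR. The 95% interval of Gclc runs from -0.07 to 0.18, or from 0.954-fold to 1.13-fold, so a change of a size like that of Nqo1 lies outside it. Gclc is the gene of the list whose direction depended on scaling, with a log2 fold change of -0.03 when library totals were used.

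Gclm was the least read gene of the list, with 167 to 262 reads per library. Its level was 12.68, 12.166 and 13.229 CPM in controls and 14.588, 14.504 and 14.83 CPM at 1% O2. All libraries at 1% O2 lay above the controls. The log2 fold change was 0.21 ± 0.09 (SE), and edgeR's adjusted p was 0.0682 (unadjusted p = 0.0329), which misses the threshold. The 3 libraries at 1% O2 differed by a CV of 1.15%, less than the 6.61% that counting error alone gives at this depth, so their close agreement understates the error. The 95% interval of 0.02 to 0.39 leaves room for anything from almost no change to a rise of 1.31-fold.

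The ratio of Gclc to Gclm reads was 6.023, 5.844 and 5.401 in controls and 5.042, 5.033 and 5.474 at 1% O2. The highest library at 1% O2 lay above the lowest control. The log2 ratio differed by -0.15, from 2.52 ± 0.08 to 2.37 ± 0.07 (SD, n = 3 each). The exact permutation test (two-sided) gave p = 0.2 without adjustment. With 3 libraries against 3, p cannot go below 0.1. So this test can neither show a change in the balance of the subunit mRNAs nor show that there was none.

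Cat (ENSRNOG00000008364), which encodes the peroxisomal enzyme catalase, had the largest fall of the 8 genes. Its level was 138.08, 137.32 and 131.85 CPM in controls and 90.09, 90.257 and 86.96 CPM at 1% O2. Both groups were tight, with CVs of 2.5% and 2.08%, about the size of counting error (2.32% and 2.68%). The means were 136 ± 3.4 and 89.1 ± 1.9 CPM (SD, n = 3 each), so that the mRNA fell by 34.3%. The change of -0.61 ± 0.05 (SE) on the log2 scale had a 95% interval of -0.71 to -0.51 (adjusted p = 1.4e-07, edgeR). Of the tested genes, 5.91% had a lower log2 fold change than Cat.

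Sod2 (ENSRNOG00000019048) encodes the manganese superoxide dismutase of the mitochondrial matrix. It had 50.938, 52.452 and 49.282 CPM in controls and 39.421, 40.007 and 35.369 CPM at 1% O2. The groups did not overlap, and the third library at 1% O2 was the lowest. The means were 50.9 ± 1.6 and 38.3 ± 2.5 CPM (SD, n = 3 each), so that the mRNA fell by 24.7%. The log2 fold change was -0.41 ± 0.06 (SE), with an adjusted p of 0.000153 by edgeR. With any 1 library left out it lay between -0.44 and -0.36.

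Sod1 (ENSRNOG00000002115), the copper and zinc superoxide dismutase found mainly in the cytosol, lay at the threshold. It had 89.929, 96.017 and 91.15 CPM in controls and 86.527, 82.008 and 85.08 CPM at 1% O2. Every library at 1% O2 lay below every control, but the gap was narrower than the range within either group. Its log2 fold change was -0.13 ± 0.05 (SE), and edgeR's adjusted p was 0.0515 (unadjusted p = 0.0234). Sod1 passed the threshold with median-of-ratios factors (adjusted p 0.0497 by edgeR), upper-quartile factors (0.021) and library totals (0.0029). It missed it in 11 of the 16 alternatives run. Among these were DESeq2 (adjusted p 0.138), the replicate block in edgeR (0.0987) and every fit with 1 library left out.

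The ratio of Sod2 to Sod1 reads was 0.5664, 0.5463 and 0.5407 in controls and 0.4556, 0.4878 and 0.4157 at 1% O2. All 3 ratios at 1% O2 were below the controls. The log2 ratio went from -0.86 ± 0.04 to -1.15 ± 0.12 (SD, n = 3 each), a difference of -0.29. Thus the mitochondrial enzyme's mRNA was 1.22-fold lower relative to the cytosolic one. By the exact permutation test (two-sided) p was 0.1 without adjustment, the smallest possible with 3 libraries against 3. This test therefore cannot show a change in the balance of the 2 mRNAs.

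**Figure D3:**
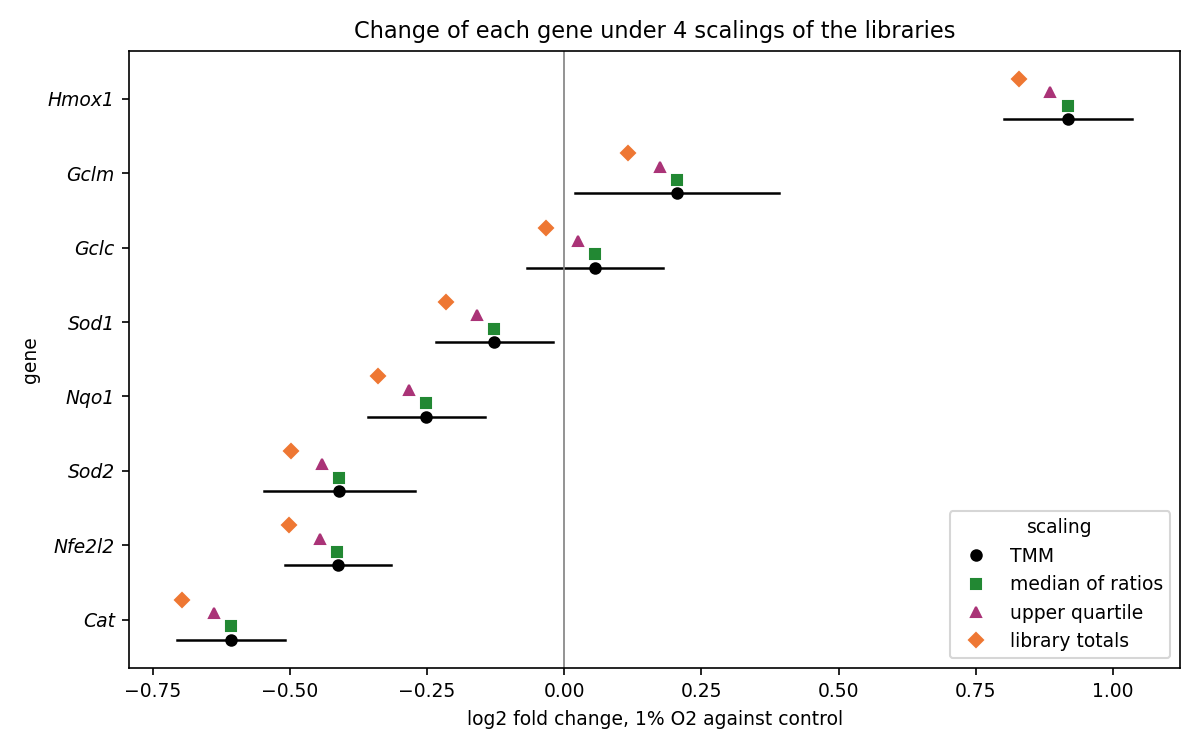
Log2 fold change of each gene (horizontal axis) under TMM scaling (black, with its 95% interval) and 3 other scalings. Library totals place every gene lower by about the same amount, which turns Gclc to -0.03 and leaves the direction of the other 7 genes as it was.

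The order of the 8 genes from the highest to the lowest log2 fold change was Hmox1, Gclm, Gclc, Sod1, Nqo1, Sod2, Nfe2l2 and Cat. From Gclm down, the 95% interval of each gene overlapped that of the next in this order, only just for Nfe2l2 and Cat. Apart from the ratio of Gclc to Gclm given above, differences between these neighbours were not tested, and an overlap of intervals does not show that they are alike. The interval of Hmox1 overlapped that of no other gene of the list. In 7 of the 8 genes, all but Gclc, all libraries of one group lay above all those of the other, and the same held for 55.5% of all tested genes. The median size of the log2 change was 0.33 over the 8 genes and 0.23 over all tested genes. The size of the log2 change was larger than in 94.0% of the tested genes for Hmox1, in 86.7% for Cat, in 75.0% for Nfe2l2 and in 74.8% for Sod2. It was larger than in 54.7% for Nqo1, in 46.5% for Gclm, in 30.5% for Sod1 and in 13.2% for Gclc.

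**Figure D4:**
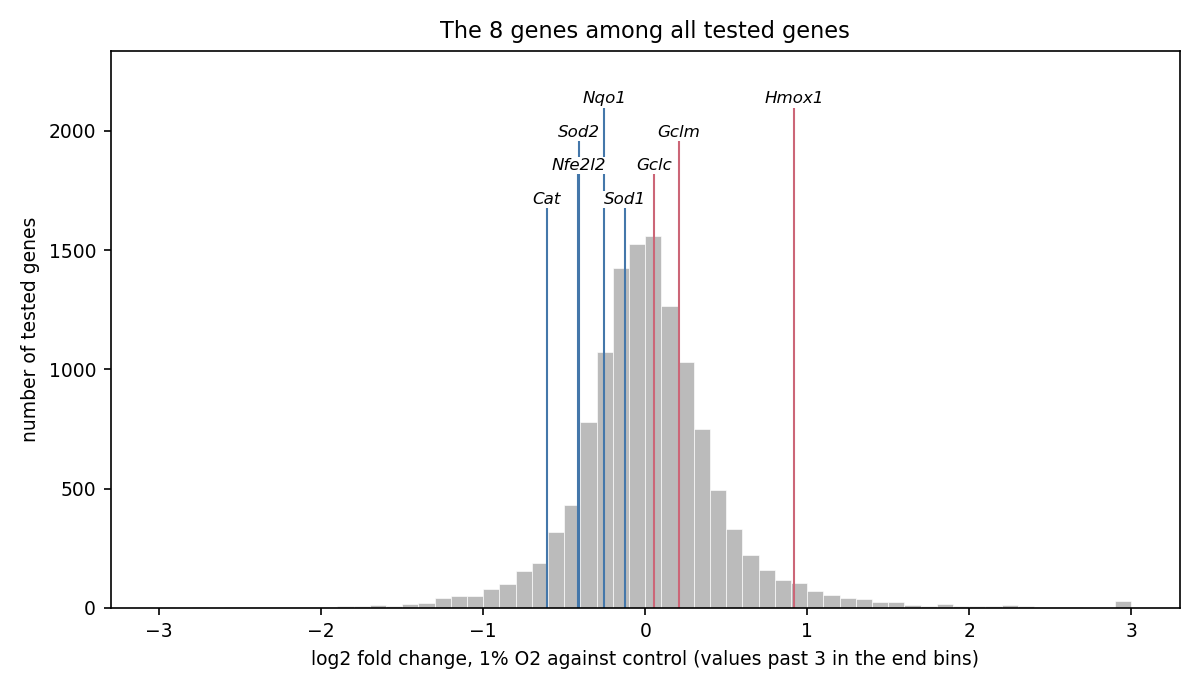
Number of tested genes (vertical axis) by log2 fold change at 1% O2 against control (horizontal axis, bins of 0.1), with the 8 genes as lines, red above 0 and blue below. Hmox1 lies in the upper tail at 0.92, Cat toward the lower tail at -0.61, and Gclc and Sod1 in the central mass.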

How the data were processed

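Messenger RNA was sequenced in 6 samples, 3 per group. The authors deposited counts per Ensembl gene ID, which were taken from their name to be raw read counts. HISAT2, featureCounts, DESeq2 and the rat build rn6 are named in the submitters' processing notes. The tools' versions, the annotation release and the use of strand were not given in the sources used here, so overlapping or antisense genes may share reads. Columns were matched to samples by library name, and 0 columns belonged to other samples.

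From the deposited counts, genes were kept by filterByExpr (minimum count 10, minimum total 15), scaled by TMM and tested with edgeR 4.0.16 in R 4.3.3 (quasi-likelihood F-test, two-sided, 4 residual degrees of freedom), with Benjamini-Hochberg adjustment over all 12702 tested genes and a threshold of 0.05. The SE is the log2 fold change divided by the square root of F. The script was tested on simulated data. Alternatives were other scalings, filters and dispersions, DESeq2 1.42.0, limma-voom (limma 3.58.1), a replicate block, leaving out each library and thinning to equal depth. All 8 genes are named whatever their result. The genes and lists were chosen with earlier results of these data known. Lists of further NRF2, glutathione, thioredoxin and cell type marker genes could not be run, since the IDs could not be named.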

Additional observations from a re-analysis of the deposited data

How the results depend on the processing

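Hmox1, Nfe2l2, Nqo1, Cat and Sod2 kept their direction and their call under all 16 alternatives run, with log2 fold changes of 0.83 to 0.95, -0.50 to -0.38, -0.34 to -0.22, -0.70 to -0.59 and -0.50 to -0.36. Gclm stayed above 0 and missed the threshold in all 16 (0.12 to 0.24). Gclc turned to -0.033 with library totals, under which the median log2 fold change of all tested genes fell by 0.0888. The higher share of called genes then fell from 51.3% to 34.3%. Sod1 passed the threshold in 5 of 16 alternatives, the other scalings, a stricter low-count filter (adjusted p just under 0.05) and robust dispersions (0.0492). The number of genes of the list called higher was 1 throughout, and that called lower was 4 or 5. Over all tested genes 4406 to 6071 were called. With the replicate block 5295 genes were called, and the calls of the 8 genes did not change. Same-numbered libraries deviated from their group means with correlations of -0.044, -0.051 and 0.005, and the labels state no pairing, so no pairs were assumed. Leaving out 1 library, the difference in log2 ratio was -0.20 to -0.12 for Gclc to Gclm, -0.34 to -0.23 for Sod2 to Sod1 and 1.12 to 1.24 for Hmox1 to Nqo1. The planned gene lists were not run. Depth limits Gclm most, at a counting error of 7.58% in controls and 6.61% at 1% O2, taken at each group's mean read count.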
